A study of Mus musculus with 24 samples.

Results

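Mitochondrial fatty acid oxidation was followed here through 10 genes: Cpt1a, Cpt1b, Slc25a20, Cpt2, Acadvl, Acadl, Acadm, Hadha, Hadhb and Acaa2. The set was put together by gene name and function, with earlier results of these data known, and all 10 were found among the 39017 genes of the deposited count table. RNA of fat from the mammary fat pad numbered 4, a subcutaneous depot, was sequenced from C57BL/6 mice after removal of ribosomal RNA. Diet and position gave 6 groups of 4 libraries, 24 in all. On Chow, the standard diet, the groups were fat of mice with no tumor, contralateral fat of tumor-bearing mice and peritumoral fat, and the same 3 positions were sampled on HFD, the usual abbreviation for a high-fat diet. The series describes these mice as lean and obese and the fat as near to or far from a breast tumor. Age, sex, time on diet, the tumor cells and any genetic change were not given in the sources used here, nor was it stated whether each library came from its own mouse. P-values therefore measure the spread between libraries, which may be partly technical. Sample titles mark all peritumoral libraries with L and all others with R, so this mark and the position cannot be told apart.

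Fatty acids are burned in the mitochondrial matrix, but long chains reach it only as carnitine esters. Carnitine palmitoyltransferase 1, made as Cpt1a in liver and many other tissues and as Cpt1b in muscle, joins the chain to carnitine at the outer membrane and is the rate-controlling step, inhibited by malonyl-CoA. The carrier Slc25a20 then exchanges acylcarnitine for carnitine across the inner membrane, and Cpt2 returns the chain to coenzyme A. Each turn of the cycle starts with an acyl-CoA dehydrogenase matched to chain length, Acadvl for very long, Acadl for long and Acadm for medium chains. The trifunctional protein, with alpha subunit Hadha and beta subunit Hadhb, carries the following steps for long chains, and the thiolase Acaa2 releases acetyl-CoA from shorter ones. White fat mainly stores and releases fatty acids and is known for far lower oxidation than liver, heart or brown fat.

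Upstream sequences are shown for Cpt1a and Acadm, the members with the largest diet differences in peritumoral and in contralateral fat respectively, and for the gap between the neighbouring genes Hadha and Hadhb. Sequences are from RefSeq, build GRCm38.p6, whose promoter table held 8 of the 10 members. Each is written 5′ to 3′ on the strand of its gene, and on the plus strand for the gap. Capitals mark the hexamer AGGTCA on either strand, the core element bound by nuclear receptors such as the PPARs. Cpt1a and Acadm are given for the 250 bases before their RefSeq starts, at chr19:3323051-3323300 on the plus strand and chr3:153944644-153944893 on the minus strand, and the Hadha to Hadhb gap lies at chr5:30155163-30155247.
Cpt1a: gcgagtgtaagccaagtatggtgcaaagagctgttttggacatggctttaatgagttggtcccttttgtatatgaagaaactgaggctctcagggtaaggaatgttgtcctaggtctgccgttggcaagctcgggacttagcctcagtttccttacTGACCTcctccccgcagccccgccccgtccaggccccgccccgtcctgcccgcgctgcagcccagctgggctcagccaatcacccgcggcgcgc
Acadm: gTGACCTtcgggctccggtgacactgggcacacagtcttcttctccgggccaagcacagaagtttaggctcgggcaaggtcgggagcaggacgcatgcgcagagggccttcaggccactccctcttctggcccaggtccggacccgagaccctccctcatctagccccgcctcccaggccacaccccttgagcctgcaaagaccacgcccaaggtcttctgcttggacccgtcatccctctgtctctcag
Hadha to Hadhb: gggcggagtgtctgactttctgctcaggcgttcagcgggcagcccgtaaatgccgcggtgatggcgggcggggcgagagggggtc

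The hexamer begins 94 bases before the start of Cpt1a and 87 bases before that of Acadvl, and in Acadm at base 2 of the window, and was not found in the windows of Cpt2, Slc25a20, Acadl, Hadha or Hadhb. Of all 32851 RefSeq windows of 300 bases, 16.3% held it. A pair of longer elements was also searched on both strands. The direct repeat AGGTCANAGGTCA was present in 0.0396% of all windows and the element TCAAGGTCA in 0.423%, and neither was in a member's window. Both contain AGGTCA, so their matches would overlap it. The members' windows held between 50.7% and 70.3% G and C, against a median of 52.7% over all windows. In mm10 the gene models lie at chr19:3323301-3385732 for Cpt1a, chr15:89416405-89425863 for Cpt1b, chr9:108662098-108684641 for Slc25a20 and chr4:107903981-107923610 for Cpt2. The dehydrogenases lie at chr11:70010183-70015411 (Acadvl), chr1:66830839-66863277 (Acadl) and chr3:153922357-153944632 (Acadm). Hadha lies at chr5:30118301-30155162 on the minus strand and Hadhb at chr5:30155248-30184593 on the plus strand. This pair points away from each other, and the gene models in the deposited table leave 85 bases between them.

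Libraries held between 9130125 and 18204747 counts. Markers of mature fat cells (8 genes such as Adipoq and Plin1) summed in every library to between 7860 and 18200 CPM (normalised counts-per-million values, scaled for library composition), and none was at 0. Brown or beige fat markers, 9 genes that include Ucp1, summed to between 24.4 and 65.2 CPM. Macrophage markers (7 genes) summed to 1960–2590 CPM in HFD peritumoral fat and to 770–1640 CPM in the other groups. Skeletal muscle markers (13 genes) summed to 5470, 3760, 95.3 and 3050 CPM in the Chow contralateral libraries and to 3040 CPM in Chow peritumoral library 2. They reached 1210 CPM in Chow no tumor library 3 and at most 302 CPM on HFD. In such bulk samples, fewer cells of a type and less RNA per cell cannot be told apart.

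Over all 24 libraries and per kilobase of exon, Acadl and Acadm were the most abundant members, at 78.1 and 62.7 CPM per kilobase. Acaa2 followed at 42.2, Hadha at 30.9, Cpt1a at 26.9, Cpt2 at 26.8, Slc25a20 at 19.7 and Acadvl at 15.4 CPM per kilobase. Hadhb stood at 4.49 and Cpt1b at 0.0613 CPM per kilobase. The table's exon length of Hadhb is 6595 bases, while its coding transcript has 2048, and on the latter length its level was 14.5 CPM per kilobase. On coding transcript length Acadm, at 89.9 CPM per kilobase, was above Acadl, at 81.9, so the order of these 2 depends on the length used. The levels of Cpt1a and Cpt2 were too close to order, and the places of Hadhb and Cpt1b carry the limits on shared reads given further on.

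**Figure D1:**
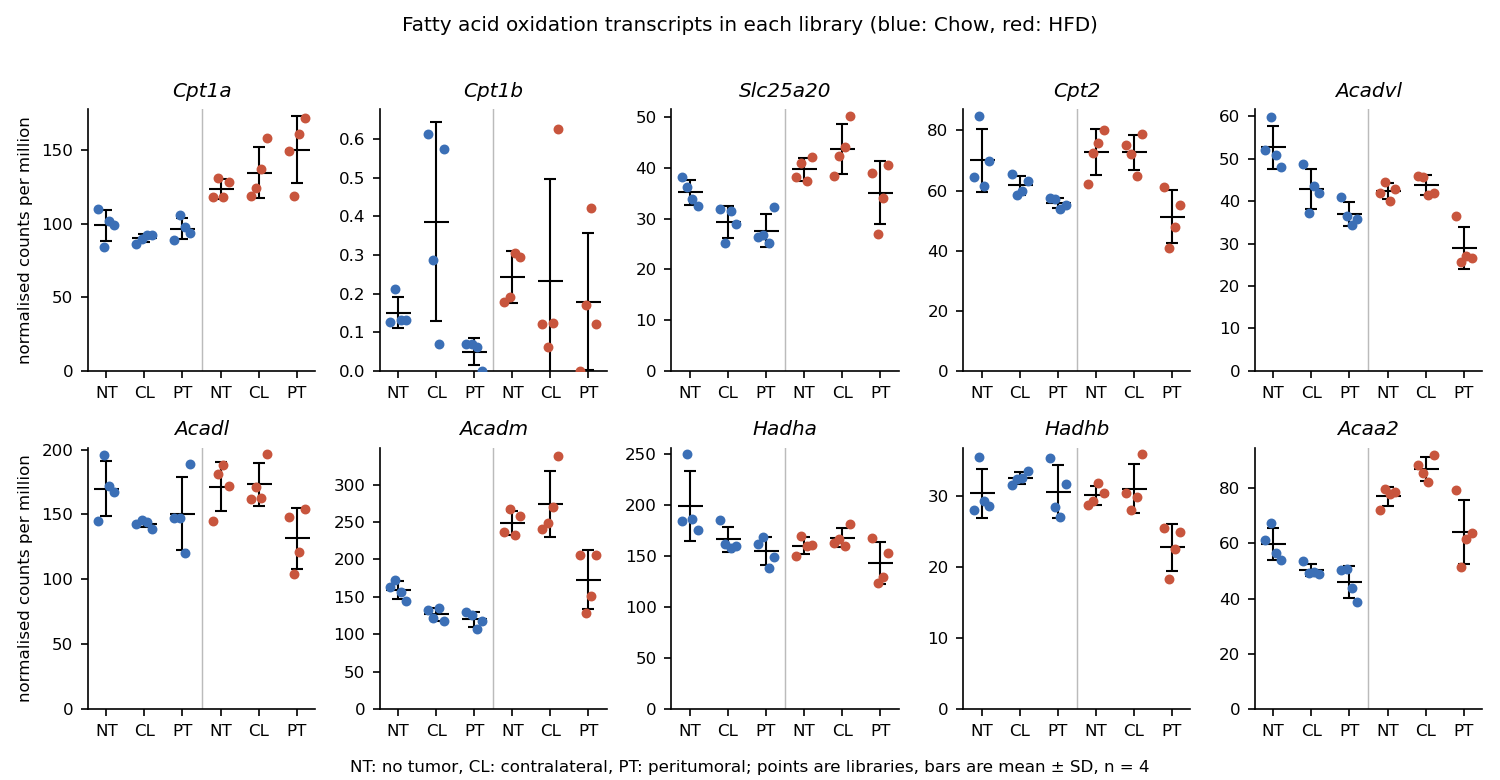
Normalised counts-per-million values (vertical axis, from 0) of the 10 genes in each of the 24 libraries, by position within diet, with mean ± SD (n = 4). All 12 HFD libraries lie above all 12 Chow libraries for Cpt1a, whose highest group is HFD peritumoral fat, while Cpt2, Acadvl, Acadl, Hadha and Hadhb have their lowest group mean there.

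Of the transferases for entry into the mitochondrion, Cpt1a was the form measured in quantity. Cpt1a stood at 110, 84.4, 102 and 98.8 CPM in Chow no tumor, at 86.5, 89.7, 92.4 and 92.5 in Chow contralateral and at 88.8, 106, 97.9 and 93.8 in Chow peritumoral fat. On HFD it stood at 118, 131, 118 and 128 CPM with no tumor, at 119, 124, 137 and 158 in contralateral fat and at 149, 119, 161 and 172 in peritumoral fat. No HFD library fell into the Chow range, at any position. The means ran from 90.3 ± 2.86 CPM (SD, n = 4) in Chow contralateral to 150 ± 23 CPM in HFD peritumoral fat. Among the 3 HFD groups, neighbouring means were closer than their spread.

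Cpt1b, the muscle form, had 0 to 10 counts per library and passed the low-count filter in no comparison. Its level was 0.614, 0.286, 0.0686 and 0.576 CPM in the Chow contralateral libraries, whose muscle marker sums are given above in the same order. The 1 Chow contralateral library with little muscle RNA thus also had the lowest Cpt1b value of that group. Other groups did not follow this: Cpt1b was at 0.0709 CPM in Chow peritumoral library 2, whose muscle markers summed to 3040 CPM. In Chow no tumor library 3, with 1210 CPM of muscle markers, it was at 0.133 CPM. Over the 24 libraries the correlation of Cpt1b with the muscle marker score was 0.26. In HFD contralateral library 4, at 0.627 CPM the highest of all, muscle markers summed to 94.3 CPM, against 59 to 64.6 CPM in the other 3 of its group. Cpt1b was at 0 in Chow peritumoral library 4 and in HFD peritumoral library 1, and a count of 0 still allows up to 3 counts. Of the 3372 exon bases of Cpt1b, 2744 (81.4%) also lie in exons of Chkb, a choline kinase gene on the same strand that stood at 15.7 to 22 CPM. Counting rules that drop reads in shared exons would leave only the other 628 bases. The rule in use is not known here, and the low values therefore set no level for Cpt1b.

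Slc25a20, the carnitine-acylcarnitine carrier, stood at 25.1–38.1 CPM on Chow and at 26.9–50.2 CPM on HFD. Its highest mean was 43.7 ± 4.94 CPM in HFD contralateral fat (38.3, 42.4, 44.1 and 50.2), and its lowest 27.6 ± 3.19 CPM in Chow peritumoral fat (26.3, 26.8, 25.1 and 32.3). These ranges do not overlap. Cpt2, which restores acyl-CoA in the matrix, was at 61.2, 41, 48 and 55.1 CPM in HFD peritumoral fat. It was at 75.2, 72.1, 65 and 78.8 CPM in HFD contralateral and at 62.3, 72.6, 75.9 and 80.2 CPM in HFD no tumor fat, both entirely above the peritumoral range. On Chow it ran from 54 to 84.8 CPM over the 3 positions.

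Acadm had its highest levels on HFD and, of the 3 dehydrogenases, the widest spread of group means. This enzyme of medium chains stood at 163, 172, 157 and 144 CPM in Chow no tumor, at 132, 121, 135 and 118 in Chow contralateral and at 130, 125, 107 and 118 in Chow peritumoral fat. On HFD it was at 237, 267, 233 and 258 CPM with no tumor, at 241, 248, 270 and 338 in contralateral and at 206, 129, 151 and 206 in peritumoral fat. The lowest of the 8 HFD libraries away from a tumor was above every Chow library, whereas HFD peritumoral library 2 lay within the Chow peritumoral range. Acadm had the widest spread of group means of the 9 tested members, 2.28-fold from Chow peritumoral (120 ± 10.2 CPM) to HFD contralateral fat (274 ± 44.4 CPM).

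Acadvl, for very long chains, was lower on HFD with no tumor. It stood at 52, 59.8, 50.8 and 48.1 CPM in Chow no tumor fat and at 41.8, 44.5, 40.1 and 42.9 CPM in HFD no tumor fat, with no overlap. HFD peritumoral fat had the lowest values, 36.4, 25.7, 27 and 26.7 CPM, against 45.9, 45.7, 41.4 and 42 CPM in HFD contralateral fat. Acadl, for long chains, had a narrow range of group means, from 132 ± 23.2 CPM in HFD peritumoral to 173 ± 16.4 CPM in HFD contralateral fat. Acadvl shares 1151 of its 2686 exon bases (42.9%) with Dvl2, a Wnt signalling gene on the opposite strand, and whether counting used strand was not given in the sources used here. Dvl2 itself stood at 9.48 to 17.4 CPM.

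For the trifunctional protein, Hadha was highest in Chow no tumor fat (184, 250, 186 and 175 CPM) and lowest in HFD peritumoral fat (168, 124, 129 and 153 CPM). Hadhb was at 25.5, 18.3, 22.5 and 25 CPM in HFD peritumoral fat, below every other library of the series, whose lowest value was 27.1 CPM. Across 24 libraries the log2 CPM of the pair had r = 0.63, and r = 0.68 after removal of group means, given as a description. The thiolase Acaa2 stood at 88.3, 85.3, 82.1 and 92 CPM in HFD contralateral, at 72, 79.5, 77.7 and 78.5 CPM in HFD no tumor and at 79.4, 51.3, 61.6 and 63.7 CPM in HFD peritumoral fat. Its Chow libraries ran from 38.8 to 67.3 CPM. All HFD contralateral libraries were above all HFD no tumor libraries, and both were above every Chow library.

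Diets were compared at each position. Without a tumor, Acadm was 1.58-fold, Acaa2 1.3-fold and Cpt1a 1.27-fold higher on HFD, and Acadvl was 1.23-fold lower. On the log2 scale the differences were 0.66 ± 0.07 (SE, adjusted p = 5.51e-05) for Acadm, 0.38 ± 0.08 (0.00335) for Acaa2, 0.34 ± 0.08 (0.00625) for Cpt1a and -0.30 ± 0.07 (0.0114) for Acadvl, by edgeR's quasi-likelihood test. Thus 3 of the 9 tested members rose and 1 fell, where 13.6% of all genes tested rose and 11.3% fell. Cpt2, Acadl and Hadhb moved by at most 0.06 with intervals that reach 0.29 in size, and Slc25a20 (0.19 ± 0.07, adjusted p = 0.0694) and Hadha (-0.30 ± 0.11, 0.0738) did not pass. The members' median difference was 0.06, against -0.02 over all genes. Of the fat cell markers 4 of 8 were higher on HFD here, with a median of 0.24, all 6 endothelial markers were higher, and 3 of 7 mammary epithelial and 4 of 7 stromal markers (median -0.24) lower. With the fat cell score as a covariate 2 members rose and 2 fell, where 1365 of 15827 genes were higher and 844 lower. The score ran from 9.76 to 10.02 on Chow and from 10.02 to 10.13 on HFD. The fit thus separates it poorly from diet. The part of fat cells and of other cells was not tested.

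In contralateral fat of tumor-bearing mice 6 members rose with diet. Acadm was 2.11-fold higher on HFD, Acaa2 1.68-fold (0.75 ± 0.06, adjusted p = 2.22e-06), Slc25a20 and Cpt1a 1.45-fold (0.54 ± 0.09 and 0.53 ± 0.08), Acadl 1.18-fold (0.24 ± 0.07, adjusted p = 0.0105) and Cpt2 1.15-fold (0.20 ± 0.07, adjusted p = 0.0267). These 6 of 9 rose and none fell, where 24.5% of all genes rose and 24.8% fell. No member fell at an unadjusted p below 0.05 or with DESeq2 either. Acadvl and the trifunctional subunits Hadha and Hadhb had differences of -0.01 ± 0.08, -0.03 ± 0.06 and -0.11 ± 0.08. Mature fat cell markers moved with the members, 6 of 8 being higher on HFD with a median of 0.64, and muscle markers the other way, 12 of 13 being lower. Of 7 macrophage markers 4 were higher and 1 lower, and all 7 tested mammary epithelial markers were lower. The call of Cpt2 was lost without Chow contralateral library 3 (0.18) or HFD contralateral library 1 (0.19) or 4 (0.16), and without the last of these Hadhb was called lower, at -0.18. Without the 4 Chow libraries richest in muscle markers (contralateral 1, 2 and 4 and peritumoral 2), which leaves 1 Chow contralateral library that is assumed to vary like the other groups, 2 of the 6 passed, Acadm at 1.01 and Acaa2 at 0.80. Of the members that no longer did, Cpt1a was still at 0.53 and Slc25a20 at 0.47. The part of muscle, fat cell and other RNA in these differences was not tested. With either the fat cell or the muscle marker score as a covariate, 3 or 2 members rose. Over all genes 390 were then higher and 216 lower, or 722 and 810, of 15913 tested. The fat cell score ran from 9.68 to 9.9 on Chow and from 10.15 to 10.39 on HFD. The muscle score ran from 1.4 to 6.32 on Chow and from -0.38 to 0.01 on HFD. Neither overlaps between the diets, so these fits cannot separate score and diet.

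In peritumoral fat the diet difference was split. Cpt1a was 1.51-fold higher on HFD (0.60 ± 0.12, adjusted p = 0.00578), Acadm 1.4-fold (0.49 ± 0.15, 0.0335) and Acaa2 1.35-fold (0.44 ± 0.14, 0.0335). Hadhb was 1.38-fold lower (-0.47 ± 0.13, 0.0226) and Acadvl 1.31-fold lower (-0.39 ± 0.13, 0.0355). So 3 rose and 2 fell, against 16.4% and 17.2% of all genes. With the counts of its near-identical copy Gm13910 added, Hadhb was at -0.07 ± 0.15 and not called. These calls other than that of Cpt1a are close to the threshold. Without any 1 of the 4 Chow peritumoral libraries, or without HFD library 1 or 4, only 1 member rose, Cpt1a. Without Chow library 1 or HFD library 3 none fell, and without Chow library 2 or 4 or HFD library 2 or 4 only 1 did. Of the macrophage markers 5 of 7 were higher on HFD, with a median of 0.81, none of the 8 fat cell markers passed, and 6 of 7 mammary epithelial markers were lower. With the fat cell score as a covariate 3 members rose and 2 fell, and with the muscle score 1 rose and 2 fell. Of 15919 genes tested, 2918 were higher and 3105 lower with the fat cell score, and 2263 and 2371 with the muscle score. The part of macrophage and epithelial RNA was not tested.

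**Figure D2:**
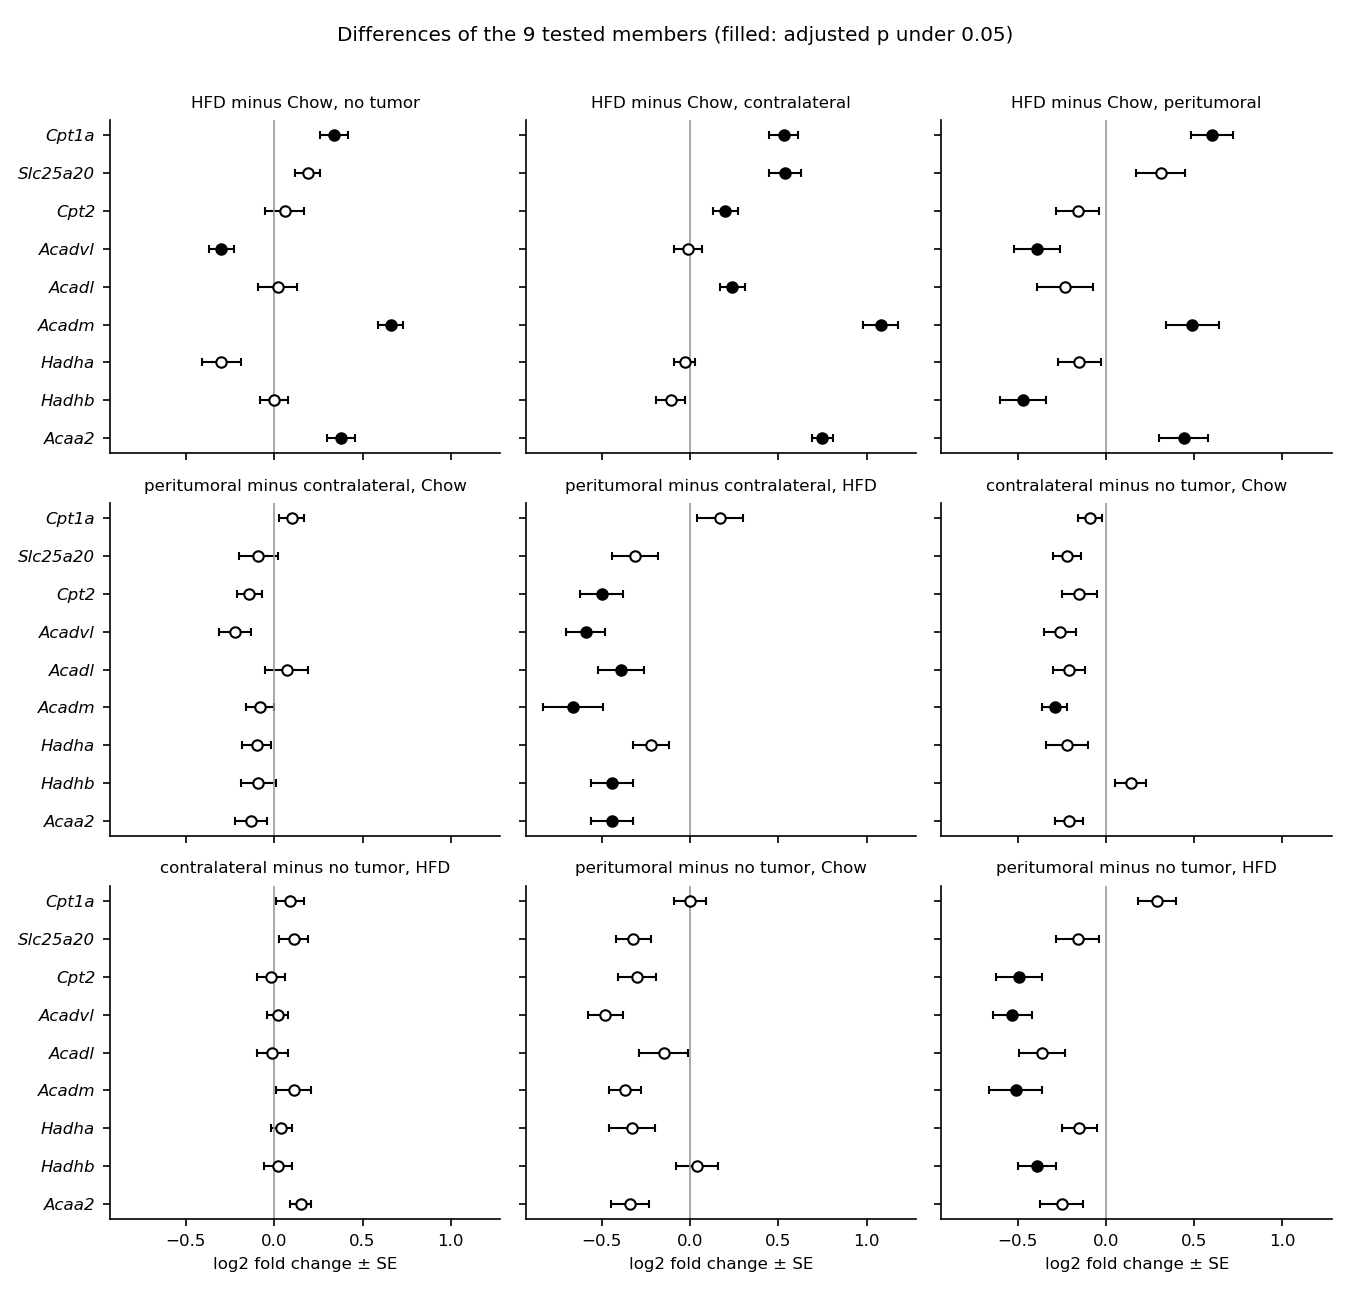
Log2 fold change ± SE (horizontal axis) of the 9 tested genes in 9 comparisons, with filled circles for an adjusted p under 0.05. Acadm reaches 1.08 in the contralateral diet comparison and falls to -0.66 between HFD peritumoral and contralateral fat, and Cpt1a stays at or above 0 in that panel.

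Fat beside the tumor was compared with fat of the opposite side. On Chow no member passed, and over all genes 0% rose and 0% fell (0 of 16057). At an unadjusted p below 0.05 there were 1381 genes, 1 of them a member (Acadvl, -0.22 ± 0.09), and DESeq2 called 7 genes higher and 8 lower, no member among them. The members' differences lay between -0.22 and 0.10. The 95% intervals reach -0.40 for Acadvl and 0.31 for Acadl, so differences up to that size are compatible with these libraries.

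On HFD most members were lower beside the tumor. Acadm was 1.57-fold lower than in contralateral fat (-0.66 ± 0.17, adjusted p = 0.0199), Acadvl 1.5-fold (-0.59 ± 0.11, 0.00663), Cpt2 1.41-fold (-0.50 ± 0.12, 0.0156), Hadhb and Acaa2 1.35-fold (both -0.44 ± 0.12) and Acadl 1.31-fold (-0.39 ± 0.13, 0.0469). These 6 of 9 fell and none rose, where 12.7% of all genes fell and 16.8% rose. The libraries of the 2 sides did not overlap for any of the 6, which were picked by a test of the same libraries. The share without overlap over all genes was not counted, so this is a description only. Slc25a20 (-0.31 ± 0.13, adjusted p = 0.102) and Hadha (-0.22 ± 0.10, 0.143) did not pass. Cpt1a alone lay above 0, at 0.17 ± 0.13 (adjusted p = 0.337), with an interval from -0.08 to 0.42. The median was -0.44 for the members and -0.02 for all genes.

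Fat cell and macrophage markers moved with this difference. Of the 8 fat cell markers 6 fell, with a median of -0.74, and their sum was 16200–18200 CPM in HFD contralateral and 15000, 7860, 10900 and 10500 CPM in HFD peritumoral fat. All 7 macrophage markers rose, with a median of 1.39, from 1020–1240 to 1960–2590 CPM in sum. HFD peritumoral library 2, with the lowest fat cell sum, also had the lowest value of its group for each of the 9 tested members. With the fat cell marker score as a covariate 0 of the 6 members passed. Over all genes, calls lower went from 1979 to 0 and calls higher from 2631 to 83 in that fit. The score, a mean of log2 CPM, ran from 10.15 to 10.39 in HFD contralateral and from 9.12 to 10.1 in HFD peritumoral fat. These ranges do not overlap, so the fit cannot separate score and group. How far the markers account for the members' difference was not tested. Without HFD contralateral library 4 or HFD peritumoral library 3 only 2 of 9 members were called lower, and without HFD contralateral library 1 only 3. Without HFD peritumoral library 1 there were 7.

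**Figure D3:**
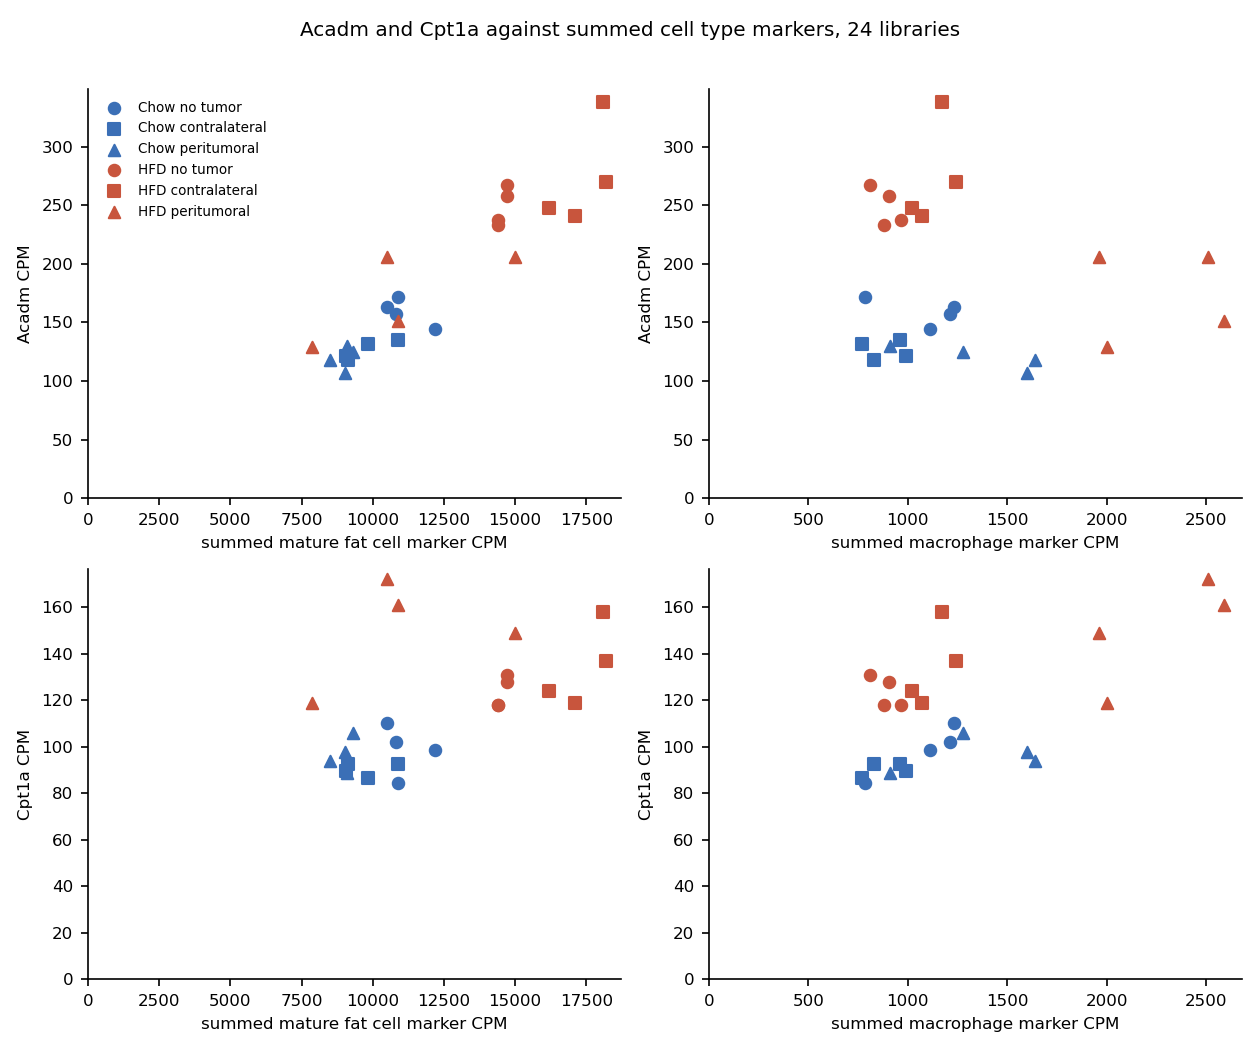
Acadm and Cpt1a (vertical axes, CPM) against the summed CPM of 8 mature fat cell markers and of 7 macrophage markers (horizontal axes) in the 24 libraries. HFD contralateral libraries sit at the high end of the fat cell sum and of Acadm, while the HFD peritumoral libraries sit at 1960–2590 CPM of macrophage markers with Cpt1a between 119 and 172 CPM.

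Across the 24 libraries, the correlation with the fat cell marker score was 0.83 for Cpt2, 0.74 for Acaa2, 0.69 for Acadm and 0.67 for Acadvl, and 0.11 for Cpt1a. With the macrophage score it was -0.78 for Acadvl, -0.77 for Hadhb and -0.71 for Cpt2, and 0.53 for Cpt1a. Of all marker lists, the fat cell score had the largest value in size for Cpt2 and Acaa2, and the macrophage score for Acadvl and Hadhb. For the other members it was another list. Acadm stood at 0.72 with the endothelial, Cpt1a at -0.81 with the mammary epithelial and Hadha at 0.77 with the brown or beige fat score. After removal of group means these were 0.67, -0.2 and 0.64. Acadm was then at 0.35 with the fat cell and Cpt1a at 0.53 with the macrophage score. The points share groups and library scaling, and these values are descriptions.

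Tumor bearing was compared at a distance, between contralateral fat and fat of mice with no tumor. On Chow, Acadm fell 1.22-fold (-0.29 ± 0.07, adjusted p = 0.0348), 1 of 9 members, where 3.02% of all genes fell and 4.93% rose. Other members except Hadhb (0.14 ± 0.09) lay between -0.26 and -0.09. The call of Acadm was lost without any 1 of 6 of the 8 libraries, and without the 4 muscle-rich libraries its value was -0.22. It remained only without Chow no tumor library 2 or 4, and without library 2 Hadhb was called higher, at 0.23. Fat cell markers had a median of -0.17 here with none passing, the muscle marker sums are those given above, and 4 of 6 endothelial markers were higher. The call of Acadm was also lost with the fat cell score (-0.24) or the muscle score (-0.29) as a covariate. On HFD no member changed, where 2.72% of all genes rose and 3.37% fell. At an unadjusted p below 0.05 there were 3633 of 15718 genes, 1 of them a member, Acaa2 (0.15 ± 0.06, adjusted p = 0.122). DESeq2 called no member.

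Peritumoral fat was also set against fat of mice with no tumor. On HFD, Acadvl was 1.45-fold (-0.53 ± 0.11, adjusted p = 0.00482), Acadm 1.42-fold (-0.51 ± 0.15, 0.0221), Cpt2 1.4-fold (-0.49 ± 0.13, 0.0137) and Hadhb 1.31-fold lower (-0.39 ± 0.11, 0.0181). These 4 of 9 fell and none rose, against 17.9% and 23% of all genes. Acadl, at -0.36 ± 0.13 (adjusted p = 0.0533), was called lower in 8 of 16 alternatives. Cpt1a was at 0.29 ± 0.11 (adjusted p = 0.0623, unadjusted 0.0274) and passed with DESeq2, at 0.30. Without HFD peritumoral library 2 Cpt1a was called higher, at 0.39. Acadm was no longer called without HFD no tumor library 2 (-0.47) or 4 (-0.49) or HFD peritumoral library 3 (-0.45), nor Hadhb without HFD no tumor library 3 (-0.36). All 7 macrophage markers rose here too, and 4 of 8 fat cell markers fell, with a median of -0.52, as did 5 of 6 endothelial and 7 of 7 epithelial markers. With the fat cell marker score as a covariate none of the 4 members was called lower, and the count of all genes called lower went from 2823 to 309. This score ran from 10.02 to 10.13 in HFD no tumor and from 9.12 to 10.1 in HFD peritumoral fat. The fit thus separates it poorly from the group. The part of fat cells and of other cell types was not tested. On Chow no member passed, and 0.0628% of all genes rose and 0.0691% fell. At an unadjusted p below 0.05 there were 3007 of 15926 genes in either direction, among them 6 members, all lower. DESeq2 called Acadm (-0.39) and Acadvl (-0.50) lower, with 306 genes higher and 340 lower in all. These comparisons share groups with those above, so their values are not separate evidence.

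Tests of the difference between diets asked whether tumor effects depended on diet. For the side of the tumor no member passed, and 0% of all genes rose or fell (0 of 16859, with 3349 at an unadjusted p below 0.05 and 358 higher and 369 lower by DESeq2). Of the members, 4 were below 0 at an unadjusted p below 0.05, with Acadm the furthest at -0.55 ± 0.19 (adjusted p = 0.155), and DESeq2 called none. Without HFD peritumoral library 1 there were 3 members called below 0, and over all genes 1112 were higher and 799 lower. With all 4 libraries per group, the 6 calls on HFD and 0 on Chow are thus not shown to differ. For tumor bearing at a distance, 3 members passed, with larger diet differences in contralateral than in no tumor fat: Acadm by 0.43 ± 0.13 (adjusted p = 0.0313), Acaa2 by 0.38 ± 0.09 (0.0108) and Slc25a20 by 0.36 ± 0.12 (0.044). Over all genes 9.94% passed in each direction. None of the 3 passed in the fit of all 24 libraries or without the 4 muscle-rich Chow libraries, where they lay at 0.33, 0.40 and 0.26. Only 1 of the 3 passed without Chow contralateral library 2 or 4, Chow no tumor library 1, or HFD no tumor library 1 or 3. Over the 25 alternatives run, the call of Slc25a20 was lost in 16, that of Acadm in 9 and that of Acaa2 in 3. Markers of several cell types moved in this test too: 4 of 8 fat cell markers (median 0.36) and 4 of 7 macrophage markers (0.66) were higher, and 5 of 6 endothelial (-0.70) and 3 of 7 mammary epithelial markers (-0.87) lower. All 13 skeletal muscle markers lay below 0, with a median of -2.61, and none passed. The part of these cell types was not tested.

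Other genes of the pathway were taken from lists, whose counts stand against the shares of all genes given above for each comparison. Of 18 further genes of mitochondrial beta-oxidation, 14 were higher and 1 lower on HFD in contralateral fat, with a median of 0.36. Among them were Hadh, the short-chain hydroxyacyl-CoA dehydrogenase (210 ± 5.23 against 127 ± 6.74 CPM, 0.69 ± 0.05), Ech1, an isomerase for unsaturated chains (0.99 ± 0.08), and Etfa, which takes electrons from the dehydrogenases (0.71 ± 0.07). The 1 lower gene was Cpt1c, the brain form of the transferase (-0.72 ± 0.15). With no tumor 3 of the 18 rose and 2 fell, and in peritumoral fat 1 rose and 2 fell. Beside the tumor on HFD 15 of the 18 fell against contralateral fat, with a median of -0.52, including Hadh (-0.72 ± 0.14) and Acads, the short-chain dehydrogenase (-0.64 ± 0.12). No gene of the list passed in the same comparison on Chow, where no gene of the table did.

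Peroxisomes shorten very long chains before mitochondria take over. Of 14 tested genes of peroxisomal oxidation and carnitine transfer, 6, 8 and 2 rose on HFD in no tumor, contralateral and peritumoral fat, and 0, 0 and 1 fell. Hsd17b4, the peroxisomal bifunctional enzyme, stood at 266 ± 22.2 against 130 ± 6.08 CPM in contralateral fat (0.99 ± 0.07), and Acaa1b, a peroxisomal thiolase, at 13.4 ± 0.967 against 3.64 ± 0.262 CPM (1.84 ± 0.11). Beside the tumor on HFD 10 of the 14 fell. Of 9 tested genes of fatty acid activation and acyl-CoA hydrolysis 3 rose on HFD in contralateral fat, where 24.5% of all genes rose. Among them was Acsl5, an acyl-CoA synthetase (0.50 ± 0.07). Beside the tumor on HFD this list did not fall as a whole. Of 10 tested genes 3 rose and 2 fell against contralateral fat, with a median of -0.06.

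Regulators of the pathway were read next. Acacb is the carboxylase that makes the malonyl-CoA which inhibits carnitine palmitoyltransferase 1. Its contralateral level was 175 ± 9.95 CPM on Chow and 60.6 ± 9.74 CPM on HFD, a difference of -1.57 ± 0.10 (adjusted p = 1.98e-06). In peritumoral fat it stood at 139 ± 20.4 and 34.8 ± 8.98 CPM (-2.03 ± 0.19), and with no tumor at 137 ± 72.2 and 50.6 ± 4.48 CPM (-1.43 ± 0.35). The lipogenic carboxylase Acaca was lower on HFD at all 3 positions as well. Of the 16 regulators 6, 4 and 8 fell on HFD with no tumor, in contralateral and in peritumoral fat and 1, 3 and 0 rose. Over all genes 11.3%, 24.8% and 17.2% fell, so the 4 of 16 in contralateral fat are at the background share. Ppara, a nuclear receptor that drives oxidation genes in liver, was lower on HFD with no tumor (5.3 ± 0.979 against 7.57 ± 0.768 CPM) and in peritumoral fat (3.68 ± 1.23 against 7.14 ± 2.79 CPM). Ppargc1b, a coactivator of mitochondrial genes, was lower at all 3 positions (-0.90 ± 0.15, -0.85 ± 0.11 and -0.97 ± 0.18). Of the 16, 11 fell beside the tumor on HFD, Ppargc1a by 1.02 ± 0.22 (3.51 ± 1.16 against 7.15 ± 0.785 CPM).

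For PPAR targets outside beta-oxidation, 5 of 8, 8 of 9 and 4 of 8 tested genes rose on HFD in no tumor, contralateral and peritumoral fat and none fell, where 13.6%, 24.5% and 16.4% of all genes rose. Angptl4, an inhibitor of lipoprotein lipase, rose by 0.94 ± 0.11, 1.09 ± 0.09 and 0.98 ± 0.13 at the 3 positions. Beside the tumor on HFD 2 of 9 tested genes fell and 0 rose against contralateral fat, where 12.7% of all genes fell. Ucp3, a mitochondrial carrier known from muscle, fell there by 0.92 ± 0.19. Against no tumor fat on HFD, 3 of 9 rose and 1 fell, with a median of 0.11.

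Carnitine supply and mitochondrial content were followed in the same way. Of 5 tested carnitine genes, 2 rose and 1 fell on HFD in contralateral fat, and Aldh9a1, an enzyme of carnitine synthesis, was higher on HFD in contralateral (0.20 ± 0.05) and peritumoral fat (0.45 ± 0.08). Unlike 6 of the members it was higher beside the tumor than opposite it on HFD (0.22 ± 0.06). The carnitine importer Slc22a5 was lower there (-0.42 ± 0.12). Of 17 genes of the citric acid cycle, respiratory chain and mitochondrial import, 6 rose on HFD in contralateral fat, among them Idh3a (0.72 ± 0.09), 2 fell with no tumor and none passed in peritumoral fat. The background shares are 24.5% higher in contralateral and 11.3% lower in no tumor fat, which the 2 of 17 match. Beside the tumor on HFD 9 of the 17 fell, with a median of -0.31, among them Sdha, a subunit of succinate dehydrogenase (-0.48 ± 0.11). Cs, citrate synthase, fell by 0.33 ± 0.10 in that comparison and was at 0.01 ± 0.07 in the contralateral diet comparison.

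Among themselves, the 8 members other than Cpt1a and Cpt1b had pairwise correlations of log2 CPM from 0.06 to 0.95 over the 24 libraries, with a median of 0.62, and from 0.29 to 0.82 after removal of group means. Acadm and Acaa2 were the closest pair (0.95), followed by Slc25a20 and Acadm (0.92). Cpt1a had a median of 0.02 over its 9 pairs and its lowest values with Acadvl (-0.48) and Hadhb (-0.46). These are descriptions over libraries that share groups and scaling.

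The 5 genes most like the members' mean, by Pearson correlation over 24 libraries among 10727 genes of at least 5 CPM, were Decr1 (0.932), Mme (0.923), Ogdh (0.918), Ptp4a1 (0.916) and Tspan12 (0.915). Decr1, a mitochondrial reductase for unsaturated chains, is on the list of further beta-oxidation genes. Among those most like Cpt1a were Dse (0.951), Creg1 (0.948), Man2b1 (0.945) and Pld3 (0.944). For Cpt1b the closest, Tmc6, reached 0.645.

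Hadhb has a near-identical copy that bears on its values. The processed pseudogene Gm13910 matches the Hadhb transcript at 99.8% of 1428 aligned bases, and the table gives it 20997 counts in all against 10824 for Hadhb. Hadhb made up between 29.2% and 50.3% of their sum, on average 40 ± 2.43% in Chow contralateral and 31 ± 1.03% in HFD contralateral fat. Gm13910 itself rose with diet in contralateral fat, from 49.1 ± 4.35 to 69.1 ± 4.36 CPM (0.45 ± 0.07, adjusted p = 0.000332). Reads that fit both places can be given to either, so the 2 rows cannot be told apart gene by gene. A further copy, Gm9108, matches Hadhb at 97.6% of 1426 aligned bases. No counts were available for it, so sums of Hadhb with Gm13910 leave it out.

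With the copy's counts added, an alternative chosen after seeing the data, the diet difference of Hadhb in contralateral fat turned from -0.11 ± 0.08 to 0.26 ± 0.06 (adjusted p = 0.00575, against 0.0383 to 0.77 over the other alternatives). In peritumoral fat it went from -0.47 ± 0.13 to -0.07 ± 0.15 (0.726, against 0.00395 to 0.0728). The difference beside the tumor on HFD was -0.44 ± 0.12 either way, and that against no tumor fat -0.33 ± 0.12 in place of -0.39. Those 2 calls held with the sum (adjusted p = 0.0261 and 0.0478, against 0.00284 to 0.783 and 0.00339 to 0.406 over the other alternatives). In sum with its copy Hadhb stood at 73.5 ± 13.1 CPM in HFD peritumoral and 75.1 ± 11.3 CPM in Chow peritumoral fat. A shorter copy of Acadm, Gm5131, with 93.5% identity over 681 bases, was not analysed here. Nor was Gm44502, which has 100% identity to Cpt1b over 1841 bases.

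**Figure D4:**
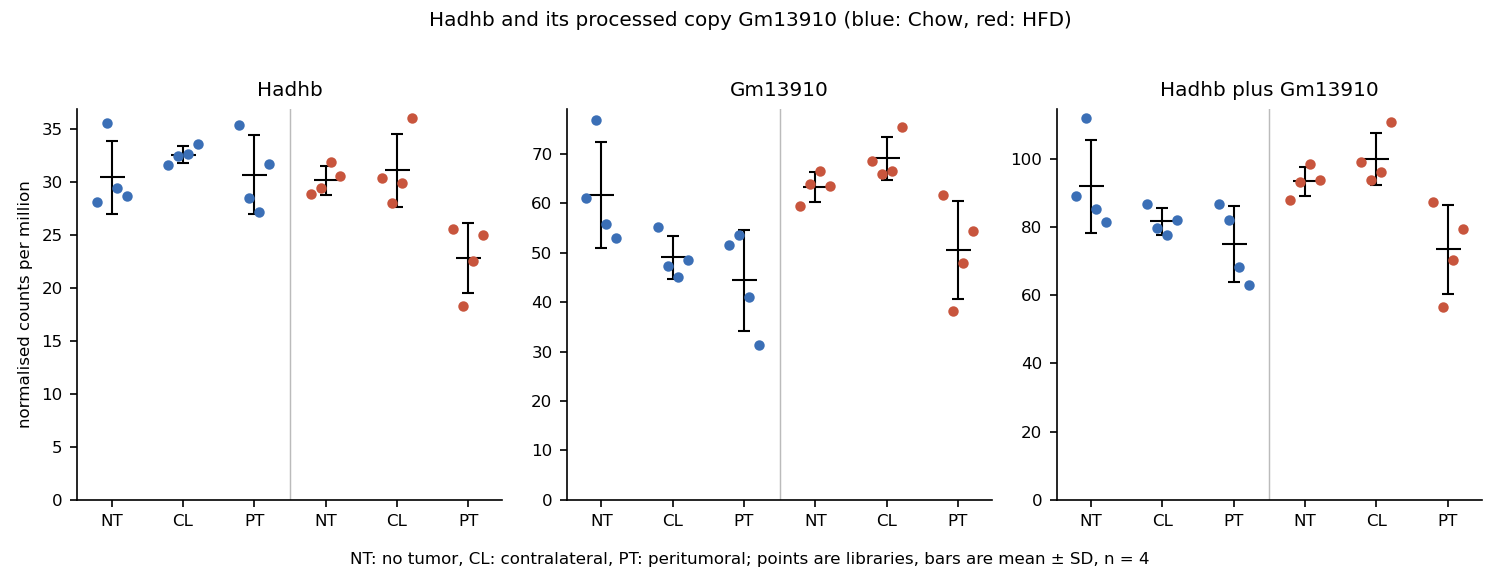
Normalised counts-per-million values (vertical axes, from 0) of Hadhb, of its processed copy Gm13910 and of their sum, by group, with mean ± SD (n = 4). Hadhb alone is at a like level in Chow and HFD contralateral fat (32.6 and 31.1 CPM), while Gm13910 is higher on HFD there (69.1 against 49.1 CPM).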

How the data were processed

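Raw counts per gene for 24 libraries were used as the authors deposited them, 1 table with exon length. Symbols were matched to its gene IDs from a separate gene name list. Reads were aligned with TopHat to mm10 and DESeq was used, per the submitters' processing notes, and versions, the counting program and strand use were not given in the sources used here. Reads that match a gene and a near-identical copy can go to either. Total counts ranged from 9130125 to 18204747 per library, which leaves the 9 tested members at 263 counts or more in each library. Counts were tested with edgeR 4.0.16 (R 4.3.3): filterByExpr (minimum count 10, total 15), TMM factors and robust quasi-likelihood F tests on the groups of each comparison, with Benjamini-Hochberg adjustment over all genes tested and a threshold of 0.05. SE is the fold change divided by the square root of F, and intervals use 1.96 SE. CPM were TMM-scaled over the 24 libraries. The 11 comparisons were repeated with DESeq2 1.42.0 and the alternatives given in the closing section. Of these comparisons, only diet in contralateral fat and diet by side were checked on simulated data. Copies were sought with BLAST 2.17.0 (at least 90% identity over 150 bases). Named genes were the 10 members, up to 3 called genes of each list per comparison with the lowest adjusted p, Cpt1c and list genes of textbook interest, and the 5 most alike by correlation. A few genes that this rule names are not reported here. Members and lists were chosen with earlier results of these data known. Between replicate libraries of a group the median chi-square per gene was 0.93 to 7.41 over 36 pairs, and no 2 columns were identical.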

Additional observations from a re-analysis of the deposited data

Results flagged for a closer look

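In 120 groups of 4 libraries tested for a library far from the others, 12 were flagged, and chance flags about 1 in 20 groups. Among the members, Acadvl was at 36.4 CPM in HFD peritumoral library 1, where the other 3 were at 25.7 to 27 CPM. Hadha was at 250 CPM in Chow no tumor library 2 (others 175 to 186) and at 185 CPM in Chow contralateral library 1 (others 158 to 162). Chkb, which shares exons with Cpt1b, was at 20.2 CPM in Chow peritumoral library 1 (others 17.8 to 18.2).

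Summed skeletal muscle markers stood at 1210 CPM in Chow no tumor library 3 (others 28 to 166), at 3040 CPM in Chow peritumoral library 2 (others 50.1 to 490), at 94.3 CPM in HFD contralateral library 4 (others 59 to 64.6) and at 302 CPM in HFD peritumoral library 2 (others 39.6 to 56.2). Lymphocyte and lymph node markers stood at 148 CPM in Chow contralateral library 4 (others 4.91 to 11.8) and at 15.8 CPM in HFD no tumor library 2 (others 6.3 to 7.03). Brown or beige fat markers stood at 34.9 CPM in HFD no tumor library 1 (others 49.5 to 51.3), and endothelial markers at 350 CPM in HFD peritumoral library 2 (others 522 to 535).

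The diet difference was larger in contralateral than in no tumor fat for Slc25a20 (0.36), Acadm (0.43) and Acaa2 (0.38), each by a test of the difference itself. The call of Slc25a20 was lost in 16 of 25 alternatives, that of Acadm in 9 and that of Acaa2 in 3.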

How the results depend on the processing

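Between diets in contralateral fat neither the fat cell nor the muscle score overlapped. Nor did the fat cell score between HFD contralateral and peritumoral fat. As covariates there, these scores cannot be separated from the group. Counts of members called moved by more than 1.5 times under these settings. With the fat cell score as a covariate, diet without a tumor lowered 2 members in place of 1, diet in contralateral fat raised 3 in place of 6, HFD peritumoral fat had 0 lower than contralateral (in place of 6) and 0 lower than no tumor fat (in place of 4), Chow contralateral fat had 0 lower than no tumor fat (in place of 1), and 1 diet by bearing difference passed in place of 3. With the skeletal muscle score as a covariate, diet raised 2 members in contralateral fat and 1 in peritumoral fat, Chow contralateral fat had 0 lower, HFD peritumoral fat had 1 higher than no tumor fat in place of 0, and 1 diet by bearing difference passed. Without the 4 muscle-rich Chow libraries, a setting added after seeing the data, these counts were 2 for diet in contralateral fat, 0 for Chow contralateral against no tumor fat and 0 for diet by bearing. In 1 fit of all 24 libraries, Chow contralateral fat had 0 lower and Chow peritumoral fat 2 lower than no tumor fat, HFD peritumoral fat had 1 higher than no tumor fat, and 0 diet by bearing differences passed. DESeq2 gave 2 lower for Chow peritumoral and 1 higher for HFD peritumoral against no tumor fat. Without a low-count filter, 1 member fell with diet in peritumoral fat and 1 was lower in Chow peritumoral than in no tumor fat.

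With the replicate block, diet without a tumor lowered 2 members and Chow contralateral fat had 0 lower, and no other count of members moved by over 1.5 times. The labels do not say that equal numbers share a mouse, and same-numbered libraries did not deviate together throughout (correlations -0.45 to 0.40).

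Leaving out 1 library gave 3 to 4 higher and 1 lower for diet without a tumor, 5 to 6 higher and 0 to 1 lower in contralateral and 1 to 4 higher and 0 to 2 lower in peritumoral fat. Peritumoral against contralateral fat gave 2 to 7 lower on HFD and 0 on Chow. Against no tumor fat, Chow contralateral gave 0 to 1 higher and 0 to 1 lower, HFD peritumoral 0 to 1 higher and 3 to 6 lower, and both other groups 0. Diet by side gave 0 to 3 and diet by bearing 1 to 4. Among single fold changes that were called in either fit, 1 changed sign, Hadhb with its copy added, at 0.26 for diet in contralateral fat; values called in neither also changed sign, such as Hadhb there with the fat cell score (0.21). Over all genes, calls higher and lower between Chow peritumoral and no tumor fat were 10 and 11, against 306 and 340 with DESeq2 and 256 and 565 in 1 fit of all libraries. Those of diet by side were 0 and 0, against 358 and 369 with DESeq2, 249 and 84 in 1 fit of all libraries, 111 and 37 with the replicate block and 1112 and 799 without HFD peritumoral library 1. Between Chow contralateral and no tumor fat they were 786 and 482, against 281 and 75 with the replicate block, 156 and 46 with the fat cell score, 111 and 10 with the muscle score and 48 and 0 without the 4 muscle-rich libraries. For diet in contralateral fat they were 3900 and 3947, against 390 and 216 with the fat cell score and 722 and 810 with the muscle score. The median over all genes moved to -0.122 for diet in contralateral fat without a low-count filter. Cpt1b, at 0 to 10 counts per library, could not be tested at this depth.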

Other observations

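Acadl exceeded Acadvl in every library, by a ratio of CPM per kilobase of exon between 3.73 and 7.71. The exon lengths used were 2005 bases for Acadl and 2686 for Acadvl, and the size of the ratio depends on them. The group means of this ratio of long-chain to very-long-chain dehydrogenase on Chow were 4.33 ± 0.415 (SD, n = 4) without a tumor, 4.51 ± 0.541 on the contralateral side and 5.48 ± 1.11 beside the tumor. The HFD means at these positions were 5.43 ± 0.667, 5.32 ± 0.68 and 6.16 ± 1.07. The ranges of Chow no tumor (3.73 to 4.66) and HFD peritumoral libraries (5.45 to 7.71) do not overlap. These groups were picked for the lowest and highest mean and differ in both diet and position. The ratio was not tested. The exons that Acadvl shares with Dvl2 on the opposite strand bear on this ratio.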
